A study of Mus musculus with 24 samples.

Results

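The 10 genes described here encode the glucose transporter Slc2a1 and 9 enzymes of glycolysis, Hk2, Pfkl, Aldoa, Tpi1, Gapdh, Pgk1, Eno1, Pkm and Ldha. They are a listed set, followed among 35519 genes by summing the reads of each gene's transcripts in microglia, the resident macrophages of the brain. Cells were sorted from whole brain of C57BL/6 mice as Ly6C-, CD11b+ and Fcrls+, and 1000 cells made each Smart-Seq2 library. The 24 libraries fall into 8 groups: 4 phagocytosis groups of 4 libraries each (female NL4-/-, female WT, male NL4-/- and male WT) and 4 control groups of 2 libraries each with the same sex and genotype labels. NL4-/- mice lack neuroligin-4, a synaptic adhesion protein, and the labels name no transgene, promoter or Cre. The labels give neither the age of the mice nor the material that the cells of the phagocytosis groups took up, nor whether they did so in the animal or in culture. The design text calls the libraries biological replicates and states 5 for phagocytosis groups, of which the fifth is not analysed here; where libraries did not come from separate animals, p-values measure the spread between libraries alone.

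Glycolysis splits glucose into pyruvate in the cytosol. Slc2a1 (GLUT1) carries glucose across the plasma membrane, hexokinase traps it as glucose 6-phosphate, and phosphofructokinase commits it to the pathway. Aldolase (Aldoa) and triose phosphate isomerase (Tpi1) give glyceraldehyde 3-phosphate, which Gapdh, Pgk1, Eno1 and Pkm turn into pyruvate in the steps that yield ATP, and Ldha reduces pyruvate to lactate. Macrophages, microglia included, are known to increase glycolysis on activation, and several of these genes are known targets of hypoxia-inducible factor and of Myc.

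Expected counts summed to between 421107 and 1013797 per library, and all 10 genes passed the expression filter. Of 12 microglial markers, none was higher on average in phagocytosis libraries, where their summed level was 19601 to 46088 CPM (counts scaled to a common library total; median 28031), against 34203 to 48457 CPM in control libraries (median 43437). All 12 markers of border-associated macrophages averaged higher in phagocytosis libraries (186 to 574 CPM, against 57.6 to 143 CPM in controls), as did 9 of 9 monocyte markers (24.2 to 197 against 17.4 to 87.7 CPM) and 11 of 12 neuronal markers (20.6 to 118 against 6.6 to 15.5 CPM). Of 10 astrocyte markers 9 averaged higher in phagocytosis libraries, with sums of 75.9 to 146 CPM against 58.7 to 137 CPM in controls. The oligodendrocyte sum was 171 to 371 CPM against 125 to 193 CPM, with 7 of 13 markers higher in phagocytosis libraries. Lymphocyte (168 to 431 against 250.4 to 561 CPM) and neutrophil sums (271 to 608 against 418 to 659 CPM) had lower medians in phagocytosis libraries. Of their markers, 3 of 10 and 5 of 10 averaged higher there, and Csf3r was the most abundant neutrophil marker. Ribosomal protein genes took 3.01 to 5.6% of reads in phagocytosis libraries and 2.19 to 3.37% in controls. Of 12 endothelial markers 5 averaged higher in phagocytosis libraries (23.0 to 81.6 against 22.4 to 42.1 CPM), and Cldn5 had 0 reads in all libraries. Erythroid sums were 1.3 to 931 CPM in phagocytosis libraries (median 10.8) and 1.13 to 91.1 CPM in controls (median 3.07), with 6 of 7 markers higher in phagocytosis libraries. Reads of 11 predicted genes of satellite-like sequence made up 1.51 to 16.2% of phagocytosis libraries and 4.04 to 23.1% of control libraries, with 3 controls over 20% (female NL4-/- control 1, male NL4-/- control 1 and male WT control 2). The part of these differences in the results below was not tested beyond the values given without those 3 libraries. In bulk RNA, fewer cells of a type and less RNA per cell cannot be told apart.

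Phagocytosis libraries had higher relative mRNA levels of most genes of the set. Averaged with equal weight over the 4 pairs of phagocytosis and control groups, 7 of the 10 genes rose in phagocytosis against control libraries (edgeR quasi-likelihood test, Benjamini-Hochberg adjusted p under 0.05), against 8.41% of the 9803 genes tested that were called higher and 13.6% called in either direction. The 7 were all the enzymes of the set from aldolase to lactate dehydrogenase, while Slc2a1, Hk2 and Pfkl did not pass. Differences between genes were not tested, and Gpi1 and Hk3, of earlier steps and outside the set, also passed, as given below. The median log2 fold change over the 10 genes was 0.62, against -0.01 over all genes tested. Together the 10 genes took 0.685 to 1.23% of reads in phagocytosis libraries (median 0.963%) and 0.411 to 0.868% in control libraries (median 0.514%). With the satellite-like reads set aside, their share was 0.697 to 1.29% in phagocytosis libraries (median 1.02%) and 0.522 to 0.904% in controls (median 0.593%), so the ranges overlapped on both scales.

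**Figure D1:**
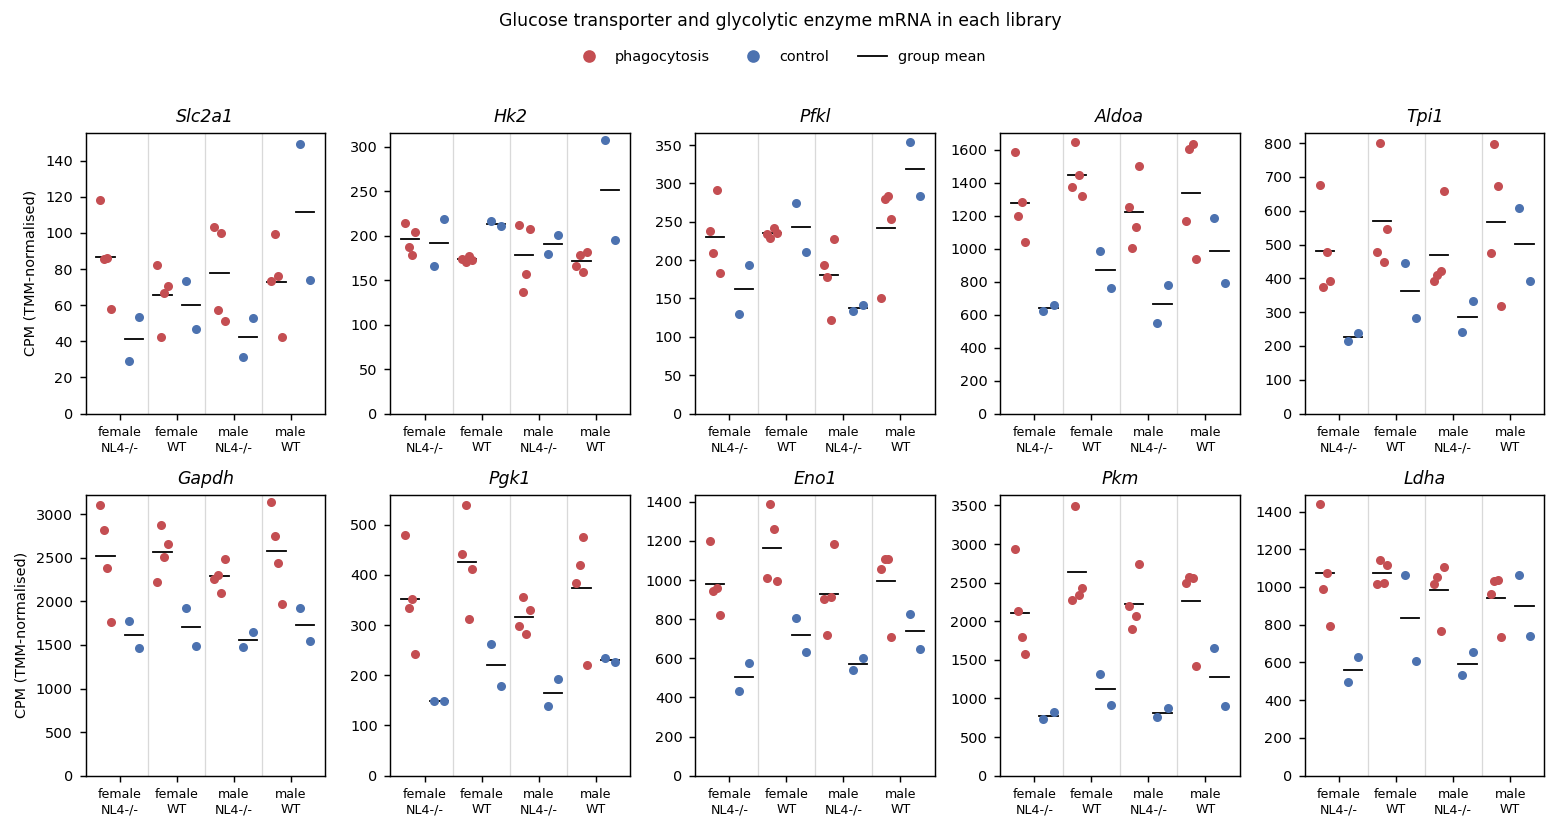
Each panel plots 1 gene in CPM (TMM-normalised, linear axis from 0) with a point per library, phagocytosis (red) left of control (blue) within each sex and genotype, and a line at the group mean. Pkm lay between 1419 and 3498 CPM in the 16 phagocytosis libraries and between 733 and 1654 CPM in the 8 controls, while Hk2 and Pfkl overlapped widely.

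Per length, the order of the levels was similar in both states. Gapdh led with 1489 ± 228 TPM (the deposited relative abundance per transcript length, mean ± SD) in phagocytosis libraries and 825 ± 292 TPM in controls (n = 16 and 8 libraries). In phagocytosis libraries Pkm (825 ± 216 TPM), Aldoa (746 ± 155 TPM) and Ldha (573 ± 113 TPM) followed, neighbours whose SDs overlap, and then Eno1 (429.6 ± 91.5 TPM), Tpi1 (269 ± 82.8 TPM) and Pgk1 (186 ± 48.5 TPM). In controls the second place was held by Aldoa (388 ± 204 TPM), next to Ldha (345 ± 195 TPM) and Pkm (305 ± 185 TPM), whose values do not differ beyond their spread. The lowest means in both states were those of Hk2, Pfkl and Slc2a1, although in controls Pgk1 (78.3 ± 37.0 TPM) did not differ from Hk2 beyond their spread. Hk2 had 55.6 ± 29.7 TPM in phagocytosis and 74.7 ± 46.8 TPM in control libraries, Pfkl had 55.1 ± 16.1 TPM in phagocytosis and 47.2 ± 31.2 TPM in control libraries, and Slc2a1 had 24.6 ± 7.88 TPM in phagocytosis and 19.0 ± 17.7 TPM in control libraries.

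Slc2a1 (ENSMUSG00000028645.11, GRCm38 chr4:119108711-119137983, + strand) was the least measured of the set, with 19 to 82 reads in phagocytosis libraries and 13 to 70 reads in controls. Its level ran from 42.5 to 118 CPM in phagocytosis libraries (median 74.6) and from 29.2 to 149 CPM in controls (median 53.0). The states overlapped fully, since the highest value of all was in male WT control 1. The log2 fold change was 0.36 ± 0.195 (SE; edgeR adjusted p = 0.231). The division of its reads was unstable: the transcript Slc2a1-204, annotated as subject to nonsense-mediated decay, was given 51.2 ± 24.5% of the gene's reads in phagocytosis libraries and 32.9 ± 36.1% in controls (SD, n = 16 and 8), with single libraries between 0 and 89.9%. On protein-coding transcripts alone the log2 fold change was 0.14 (edgeR adjusted p = 0.876), so the estimate for the transporter depended on which transcripts were counted.

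Hk2 (ENSMUSG00000000628.10, chr6:82725025-82774454, - strand), a hexokinase that binds mitochondria, was the only gene of the set with a negative log2 fold change, -0.23 ± 0.106 (edgeR adjusted p = 0.154). It lay between 137 and 214 CPM in phagocytosis libraries (median 178) and between 166 and 307 CPM in controls (median 206). Of the 16 phagocytosis libraries, 3 fell below every control. Pfkl (ENSMUSG00000020277.10, chr10:77986947-78010083, - strand), the liver-type phosphofructokinase, ranged from 122 to 291 CPM in phagocytosis libraries (median 231) and from 130.4 to 354 CPM in controls (median 202), a log2 fold change of 0.11 ± 0.130 (edgeR adjusted p = 0.642). Neither gene shared sequence with copies elsewhere to which reads were given.

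Aldoa (ENSMUSG00000030695.16, chr7:126795234-126800751, - strand), which splits fructose 1,6-bisphosphate, had 939 to 1647 CPM in phagocytosis libraries (median 1302) and 548 to 1185 CPM in controls (median 769). Its lowest phagocytosis library was male WT phagocytosis 4, and 11 of 16 phagocytosis libraries lay above every control. It rose by 0.76 ± 0.124 on the log2 scale (edgeR adjusted p = 0.000105). Another locus annotated with the symbol Aldoa held 13 reads over all libraries and was not counted. Tpi1 (ENSMUSG00000023456.15, chr6:124810586-124814296, - strand), which interconverts the triose phosphates, had 317 to 801 CPM in phagocytosis libraries (median 476) and 214 to 608 CPM in controls (median 308). The highest control, male WT control 1, stood above all but 5 of the phagocytosis libraries. Tpi1 rose by 0.65 ± 0.167 (edgeR adjusted p = 0.00969), but the call was lost without the 3 satellite-rich controls (0.52, adjusted p = 0.171) and with only phagocytosis replicates 3 and 4 (0.58, adjusted p = 0.0512).

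Gapdh (ENSMUSG00000057666.18, chr6:125161715-125166467, - strand), often used as a constant reference gene, was among the genes that rose. It had 1759 to 3137 CPM in phagocytosis libraries (median 2465) and 1461 to 1928 CPM in controls (median 1595). Of 16 phagocytosis libraries, 15 lay above every control, female NL4-/- phagocytosis 4 being the other. The log2 fold change was 0.59 ± 0.113 (edgeR adjusted p = 0.000823).

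Gapdh also has the most copies in the genome, which limits what its own count means. Of the 31-base words of its main transcript, 84.1% occur in other genes, and 87 genes, 84 of them not protein-coding, were counted as copies. They were given 23697 reads over the 24 libraries against 35390 for Gapdh itself, 40.1% of the sum. The processed pseudogenes Gm7336 (chr7:51746647-51747878, + strand, 12134 reads) and Gm10359 (chr5:105862701-105863702, - strand, 9639 reads) led them. The reading frame of Gapdh, 1002 bases, had 0 mismatches to either. The first 90 bases from the start codon (base 241 of Gapdh-203, base 51 of Gm7336 and base 1 of Gm10359) are the same in all 3, so that a read inside this stretch could belong to any of them.
Gapdh-203: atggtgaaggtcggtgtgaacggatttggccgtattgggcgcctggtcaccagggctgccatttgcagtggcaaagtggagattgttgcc
Gm7336: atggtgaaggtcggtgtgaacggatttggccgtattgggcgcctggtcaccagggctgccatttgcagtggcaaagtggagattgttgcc
Gm10359: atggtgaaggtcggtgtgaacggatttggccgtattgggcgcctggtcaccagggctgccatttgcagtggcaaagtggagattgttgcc
The copies' share was 40.2 ± 5.31% in phagocytosis libraries and 39.5 ± 8.21% in controls (SD, n = 16 and 8), with the lowest, 20.4%, in female NL4-/- control 1. Added to Gapdh, the sum had 4163 ± 592 CPM in phagocytosis libraries and 2771 ± 488 CPM in controls, and its log2 fold change was again 0.59 (edgeR adjusted p = 0.000642). Within groups the placement of these reads did move the difference: with copies added, the log2 fold change of Gapdh was 0.38 in male WT mice, against 0.57 for Gapdh alone, and 0.79 in female NL4-/- mice, against 0.64, none of which passed.

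**Figure D2:**
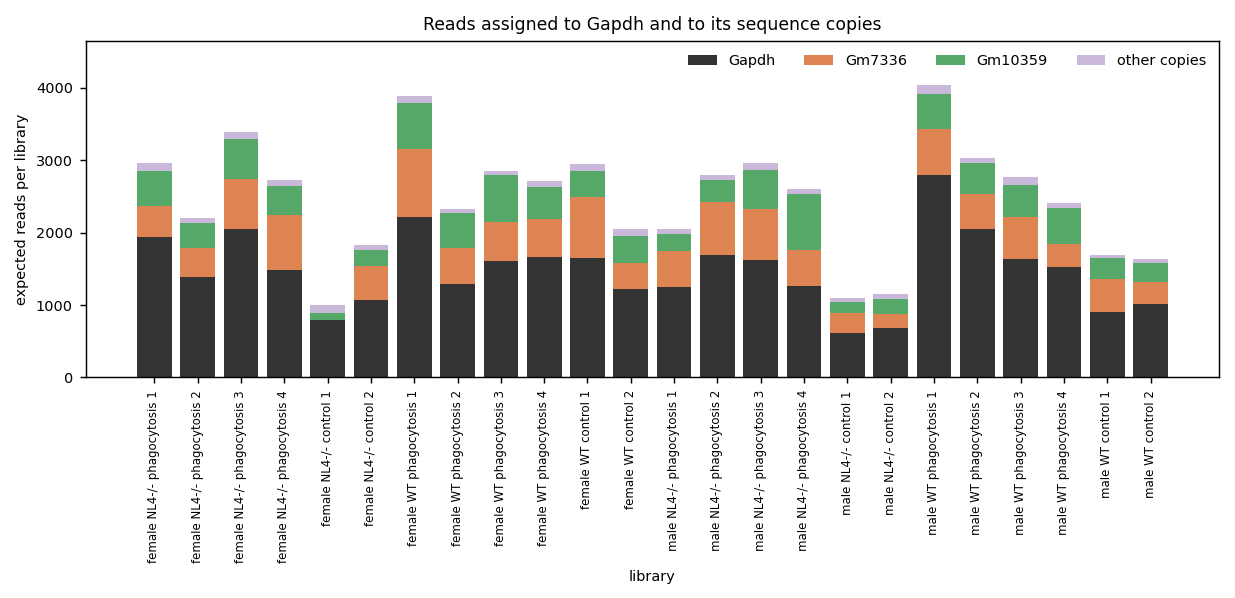
Stacked bars give the expected reads of each library assigned to Gapdh (black), the pseudogenes Gm7336 (orange) and Gm10359 (green) and the other copies (violet), on a linear axis from 0, with phagocytosis left of control within each sex and genotype. Copies took at most 51.5% of a bar in phagocytosis libraries and at most 46.6% in controls, and at least 20.4% in every library.

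Pgk1 (ENSMUSG00000062070.12, chrX:106187100-106203699, + strand) carries out the first ATP-yielding step. It had 221 to 539 CPM in phagocytosis libraries (median 354) and 138 to 263 CPM in controls (median 186). All but male WT phagocytosis 4 and female NL4-/- phagocytosis 4 lay above every control. It rose by 0.96 ± 0.142 on the log2 scale (edgeR adjusted p = 3.12e-05). Its copies held 1.03% of the summed reads, but 23.3% in male NL4-/- phagocytosis 4, and with copies added the log2 fold change was 0.98. Eno1 (ENSMUSG00000063524.13, chr4:150236721-150248879, + strand), the enolase that forms phosphoenolpyruvate, had 708 to 1388 CPM in phagocytosis libraries (median 1003) and 434 to 828 CPM in controls (median 618), and rose by 0.70 ± 0.119 (edgeR adjusted p = 0.000199). Of its phagocytosis libraries, 13 of 16 stood above every control.

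Pkm (ENSMUSG00000032294.17, chr9:59656368-59679375, + strand), the pyruvate kinase of most tissues outside liver and red cells, had the largest fold change of the 10 genes. It had 1419 to 3498 CPM in phagocytosis libraries (median 2305) and 733 to 1654 CPM in controls (median 890.2). Only male WT phagocytosis 4 and female NL4-/- phagocytosis 4 fell below the highest control, male WT control 1. The log2 fold change was 1.24 ± 0.145 (edgeR adjusted p = 6.77e-07).

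Pkm makes alternative enzymes by using either of a pair of neighbouring exons: the upstream one gives the M1 form of adult muscle and brain, and the downstream one the M2 form of proliferating cells and macrophages. Transcript Pkm-201 holds the downstream exon (GRCm38 chr9:59675568-59675734, + strand) and Pkm-202 the upstream one (chr9:59675029-59675195, + strand), each as exon 9 of 11. Both are coding and 167 bases long, and they have the same base at 103 positions (61.7%), so reads across them can be told apart. Capitals mark the bases that differ.
Pkm-201: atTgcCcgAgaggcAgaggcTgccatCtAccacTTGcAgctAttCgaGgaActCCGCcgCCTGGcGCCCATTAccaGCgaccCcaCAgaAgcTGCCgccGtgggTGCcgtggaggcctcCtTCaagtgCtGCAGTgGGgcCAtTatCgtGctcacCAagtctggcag
Pkm-202: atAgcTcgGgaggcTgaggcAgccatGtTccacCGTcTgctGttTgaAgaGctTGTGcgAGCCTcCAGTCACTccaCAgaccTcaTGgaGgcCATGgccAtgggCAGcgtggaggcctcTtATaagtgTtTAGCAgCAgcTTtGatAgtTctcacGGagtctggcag
Pkm-202 made up 9.47 ± 2.28% of the reads of both transcripts in phagocytosis libraries (5.24 to 14.2%) and 9.07 ± 4.19% in controls (3.29 to 14.0%; SD, n = 16 and 8). Over all libraries the states overlapped and their means differed by less than either SD, but the groups went different ways. In female WT mice all 4 phagocytosis libraries (6.39 to 11.4%) lay below both controls (13.5 ± 0.687%, SD), whereas in female NL4-/- mice the share averaged 9.59 ± 1.99% in phagocytosis libraries and 5.59 ± 3.25% in controls, with overlap. Shares were not tested, and some controls had as few as 10.45 reads of Pkm-202. The transcripts also differ at their ends, which the deposited estimates use as well.

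Ldha (ENSMUSG00000063229.15, chr7:46841475-46855627, + strand) had 734 to 1441 CPM in phagocytosis libraries (median 1027) and 497 to 1062 CPM in controls (median 641). The controls were spread, with female WT control 1 and male WT control 1 near the phagocytosis median and only 5 of 16 phagocytosis libraries above every control. Ldha rose by 0.52 ± 0.123 (edgeR adjusted p = 0.00482). Like Tpi1, it lost the call without the 3 satellite-rich controls (0.40, adjusted p = 0.154) and with only phagocytosis replicates 3 and 4 (0.43, adjusted p = 0.0546). Without those 3 controls, which left all groups but female WT with a single control assumed to vary like the rest, Pkm, Pgk1, Aldoa, Eno1 and Gapdh still passed, while over all genes the count of calls was 410 in place of 1332.

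The promoters of the set were searched for ACGTG, the core of the site of hypoxia-inducible factor, on both strands (CACGT on the printed strand is the reverse match). RefSeq promoter windows (GRCm38.p6, 250 bases before to 50 after an annotated start of transcription) matched all 10 genes by symbol. The motif was present in 6 of 10, against 19.6% of the 32851 promoters in the table: 5 matches in Ldha, 2 each in Hk2 and Pgk1, and 1 each in Aldoa, Gapdh and Slc2a1. CACGTG, which Myc-type factors bind, reads the same on both strands and counts as 2 of these matches. Eno1, Pfkl, Pkm and Tpi1 held no match in this window, among them the gene with the largest fold change. For Eno1, Pkm and Tpi1 the window lay around a start 244, 208 and 138 bases from that of the transcript with the most reads. Their lack of a match therefore covers that window alone. The 250 bases before the start are shown for the genes with the most matches among those that rose, Ldha (chr7:46845554-46845803, + strand) and Pgk1 (chrX:106186850-106187099, + strand), with matches in capitals.
Ldha: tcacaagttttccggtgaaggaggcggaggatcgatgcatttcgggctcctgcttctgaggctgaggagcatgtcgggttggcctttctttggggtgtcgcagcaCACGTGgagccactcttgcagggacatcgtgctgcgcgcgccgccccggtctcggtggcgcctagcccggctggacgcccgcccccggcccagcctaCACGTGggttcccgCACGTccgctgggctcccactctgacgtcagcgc
Pgk1: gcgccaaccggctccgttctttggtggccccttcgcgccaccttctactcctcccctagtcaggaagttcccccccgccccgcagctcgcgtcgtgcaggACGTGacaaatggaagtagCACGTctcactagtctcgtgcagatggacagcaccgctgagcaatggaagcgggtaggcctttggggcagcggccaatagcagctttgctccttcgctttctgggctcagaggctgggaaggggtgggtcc
A match is a stretch of letters and not a bound site, and no binding was measured.

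Within each sex and genotype, the state difference was examined in 4 phagocytosis against 2 control libraries. In female NL4-/- mice 2 of 10 genes passed (background 0.459%), Pkm with 1.44 and Pgk1 with 1.24 on the log2 scale (edgeR adjusted p = 0.0152 and 0.0445). In female WT mice 1 passed (0.581%), Pkm with 1.23 (adjusted p = 0.0393), and in male NL4-/- mice 1 (0.602%), Pkm with 1.45 (adjusted p = 0.0121). In male WT mice none passed in edgeR or DESeq2 (0.326%), with 4 of 10 at an unadjusted edgeR p under 0.05, against 804 of the 9803 genes tested. Of these 4, Pkm (0.83, adjusted p = 0.371), Gapdh and Pgk1 had values above 0 and Hk2 (-0.54, adjusted p = 0.469) below 0. DESeq2 called 6 genes in female NL4-/- mice (0.675% of all 26375 genes with a read), 4 in female WT mice (1.04%), 2 in male NL4-/- mice (0.686%) and 0 in male WT mice (0.364%). The DESeq2 shares count genes too scarce for the edgeR filter, so they are lower than shares of the 9803 genes would be. Each Pkm call needed both controls of its group. With 1 control left out, Pkm had log2 fold changes of 1.56 and 1.39 in female NL4-/- mice (edgeR adjusted p = 0.101 and 0.484), 1.60 and 1.37 in male NL4-/- mice (0.226 and 0.3), and 1.53 and 0.99 in female WT mice (0.121 and 0.896), each in a fit with a lone control in that group, assumed to vary like the other groups.

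The libraries show how these groups differ. In female NL4-/- mice Pkm had 2942, 2137, 1793 and 1576 CPM in phagocytosis libraries, against 733 and 823 CPM in controls. In male NL4-/- mice it had 2195, 1902, 2071 and 2741 CPM in phagocytosis libraries, against 759.6 and 875 CPM in controls. Both NL4-/- sets were separated without overlap, as were the female WT sets. In female WT mice Pkm had 2274, 3498, 2336 and 2429 CPM in phagocytosis libraries, against 1323 and 918 CPM in controls. In male WT mice it had 2502, 2579, 2563 and 1419 CPM in phagocytosis libraries, against 1654 and 905 CPM in controls. Only the male WT sets overlapped, through 1 low phagocytosis library and 1 high control.

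That high control, male WT control 1, was the highest of the 8 controls for 8 of the 10 genes, all but Pgk1 and Ldha. Its satellite-like share was the lowest of the controls at 4.04%. Without it the male WT log2 fold change of Pkm was 1.34 (edgeR adjusted p = 0.28), that of Ldha 0.36, against 0.06 with it, and that of Slc2a1 -0.01, against -0.60 with it. Without male WT control 2, one of the satellite-rich libraries, Pkm stood at 0.48 and Slc2a1 at -1.01. For these genes the male WT value rests on which control is used. For Pgk1 it did not: its log2 fold change was 0.70 with both, 0.74 without control 1 and 0.70 without control 2.

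Counted by overlap, 7 of 10 genes were higher in every phagocytosis library than in either control in female NL4-/- mice (background 12.1% of genes) and 7 in male NL4-/- mice (11.5%). In female WT mice 6 were higher (11.5%) and Hk2 was lower (12.6%) without overlap. In male WT mice Gapdh alone was higher (9.09%) and Hk2 alone lower (8.20%). For Gapdh this rests on how reads were divided with its copies: the sum of both overlapped in male WT mice (lowest 3112 CPM in phagocytosis libraries, highest 3609 CPM in controls), and it did not overlap in female NL4-/- mice (3236 CPM against 2503 CPM), where Gapdh alone did. Over all libraries together 0 of 10 genes were free of overlap (0.796% of genes higher and 0.0714% lower).

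**Figure D3:**
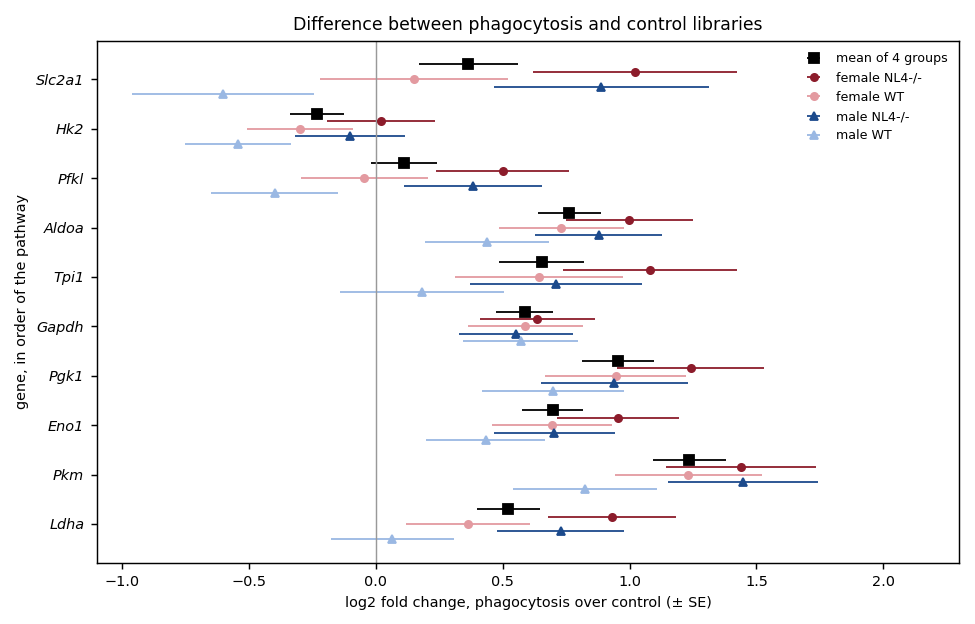
Log2 fold changes of phagocytosis over control (x axis, ± SE) for the 10 genes in pathway order (y axis), as the mean of 4 groups (black squares) and within each sex and genotype (coloured). Pkm reached 1.24 in the mean, and male WT values (light blue) were the lowest of the 4 groups for 9 of the genes, and for Gapdh too once its copies were added (0.38).

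Genotype was compared within each sex and state. No gene of the set passed in NL4-/- against WT mice in any of the 5 comparisons by edgeR or DESeq2, where 0% of the genes tested passed in edgeR. In phagocytosis libraries the mean over both sexes gave log2 fold changes of -0.26 to 0.24, and no gene had an unadjusted edgeR p under 0.05. For Pkm the phagocytosis difference was -0.32 ± 0.224 in females and -0.03 ± 0.223 in males. In controls all 10 estimates were below 0 in both sexes, -0.68 to -0.08 in females and -1.38 to -0.15 in males, in 2 NL4-/- against 2 WT libraries each.

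Among control libraries the widest differences were those of Slc2a1 and Pfkl in males. Slc2a1 had 31.5 and 52.7 CPM in male NL4-/- controls, against 149 and 74.2 CPM in male WT controls, a log2 fold change of -1.38 ± 0.467 (edgeR adjusted p = 1). Pfkl had 133 and 141 CPM in male NL4-/- controls, against 354 and 283 CPM in male WT controls, -1.21 ± 0.307 (edgeR adjusted p = 1). Both genes failed the adjustment, as did Ldha (-0.60) and Tpi1 (-0.80). These 4 of 10 genes had an unadjusted edgeR p under 0.05, against 328 of the 9803 genes tested. In the other 4 genotype comparisons no gene of the set had one.

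Whether genotype changed the state difference was tested as an interaction, the NL4-/- difference minus the WT difference. All 10 estimates were above 0 (0.01 to 1.18) and none passed in edgeR or DESeq2 (background 0%). Slc2a1 had the largest, 1.18 ± 0.388 (edgeR adjusted p = 1), then Pfkl with 0.66 ± 0.259 and Ldha with 0.62 ± 0.242, the 3 genes with an unadjusted p under 0.05, against 276 of the 9803 genes tested. Without male WT control 1 they were 0.89, 0.58 and 0.47. This comparison uses the same control libraries as the genotype comparison in controls, so the values are not separate evidence.

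Sex made no detectable difference to the set. In male against female mice 0 of 10 genes passed in any of 5 comparisons by edgeR or DESeq2 (background 0% in WT controls, 0.0204% in WT phagocytosis, 0.0408% in the phagocytosis mean and 0.0102% in both NL4-/- comparisons). In phagocytosis libraries the mean over both genotypes ran from -0.17 to -0.01 on the log2 scale. The lone unadjusted edgeR p under 0.05 was that of Slc2a1 in WT controls (log2 fold change 0.88), where male WT control 1 had 149 CPM. No gene passed in the interactions with sex, and none there had an unadjusted p under 0.05.

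Across the 16 phagocytosis libraries the enzymes that rose also varied together. Of 45 pairs of the 10 genes, 43 had a Pearson r of log2 CPM above 0, with a median of 0.418 and a range of -0.196 to 0.906, the highest for Aldoa with Eno1. Against the mean of the other 9 genes, Aldoa had r = 0.93 and Pkm 0.835, whereas Hk2 had 0.133, Slc2a1 0.188 and Pfkl 0.338. These values describe libraries that share depth and normalisation and that span 4 groups. Pairs of other genes are not given for comparison, so the values do not show that the set varied together more than other genes. Among 9100 genes compared outside the lists, those most like the mean of the 10 genes were Il1rn (r = 0.885), the interleukin-1 receptor antagonist, Hilpda (0.861), a lipid droplet protein, Ncf4 (0.849), a subunit of the phagocyte NADPH oxidase, Cd14 (0.841), a lipopolysaccharide coreceptor, and Osm (0.839), a cytokine. Il1rn, Cd14 and Osm also rose in the state comparison (log2 fold changes of 5.00, 1.63 and 1.62, edgeR adjusted p = 4.04e-05, 0.000639 and 0.00461), while Hilpda (0.82, adjusted p = 0.116) and Ncf4 (0.00, adjusted p = 0.997) did not pass.

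Other genes of glycolytic enzymes that passed were all higher in phagocytosis libraries. Of those named here, Pgam1 and Gpi1 serve steps outside the set, while Hk3, Eno2 and Aldoc are other forms of its enzymes. Of 12 other glycolytic genes tested, 5 rose and 0 fell, against 8.41% of all genes tested that were called higher. The log2 fold change was above 0 for 9 of the 12, with a median of 0.46. Most of these calls depended on the 3 satellite-rich controls, as given below. Pgam1, the phosphoglycerate mutase, had 205 to 365 CPM in phagocytosis libraries (median 253) and 123 to 305 CPM in controls (median 169), and rose by 0.56 (edgeR adjusted p = 0.00407). Gpi1, glucose-6-phosphate isomerase, rose by 0.50 (adjusted p = 0.00561), and the hexokinase Hk3, a form found in myeloid cells, rose by 0.54 (adjusted p = 0.00768), so a hexokinase other than Hk2 did pass. Eno2 (2.14, adjusted p = 0.00474) and Aldoc (2.32, adjusted p = 0.0108) were scarce, averaging 11.1 and 12.1 CPM in phagocytosis libraries and 2.46 and 2.45 CPM in controls. Eno2 is also on the neuronal marker list and Aldoc on the astrocyte list, and the neuronal sum was higher in phagocytosis libraries as given above; its part in these values was not tested.

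Genes around glycolysis gave fewer calls. Over all genes, 508 of the 9803 tested were called lower, and 1 call in a list this small is no result about the list. Of 10 sugar and monocarboxylate transporters, 0 passed in edgeR, with Slc2a5, the fructose transporter of microglia, at 100.1 to 563 CPM in phagocytosis libraries and 397 to 712 CPM in controls (-0.91 ± 0.336, adjusted p = 0.0876), and Bsg, the chaperone of monocarboxylate transporters, at 0.22 (adjusted p = 0.158). Of 5 regulators of glycolysis 1 fell, Pfkfb4 (-0.49, adjusted p = 0.0337), which sets the level of fructose 2,6-bisphosphate. Of 12 genes of pyruvate entry into mitochondria 1 fell, Pdk1 (-0.55, adjusted p = 0.0485), the kinase that inhibits pyruvate dehydrogenase; Pfkfb4 passed in 11 and Pdk1 in 5 of the 24 fits that left out 1 library.

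The counts for the next lists are close to the 8.41% of all genes called higher and are no result about them. Of 7 pentose phosphate genes 1 rose, Taldo1 (transaldolase, 0.47, edgeR adjusted p = 0.00574), and of 20 cycle genes 2 rose, Mdh2 (malate dehydrogenase, 0.59, adjusted p = 0.00145) and Sdhb (a succinate dehydrogenase subunit, 0.36, adjusted p = 0.0248). None of 11 genes of glycogen and gluconeogenesis and none of 16 regulators and targets of hypoxia-inducible factor passed in edgeR. The lowest p-values there belonged to Pck2 (-0.23, edgeR adjusted p = 0.377) and Gys1 (0.33, adjusted p = 0.429), and to Kdm3a (-0.56, adjusted p = 0.0854) and Vhl (-0.41, adjusted p = 0.131). The medians were -0.04 and 0.13, against 0.62 for the 10 genes and -0.01 for all genes. The hypoxia median covers 16 of 24 listed genes. Others, such as Vegfa, Adm and Car9 (6, 17 and 32 reads over all libraries), did not pass the expression filter. Without the 3 satellite-rich controls, Eno2 was the only gene of these 8 lists that passed.

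**Figure D4:**
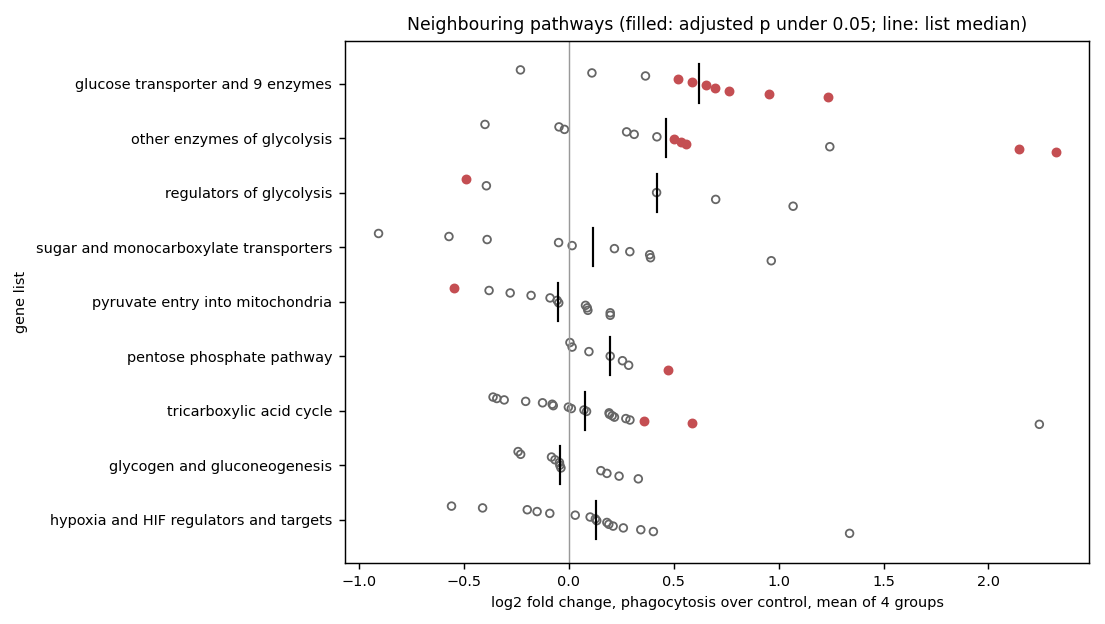
Log2 fold changes of phagocytosis over control, mean of 4 groups (x axis), for the tested genes of each list (y axis), filled where the edgeR adjusted p was under 0.05, with a line at the list median. The glucose transporter and 9 enzymes have a median of 0.62 and 7 filled points, the other enzymes of glycolysis 0.46 and 5, and glycogen and hypoxia lists none.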

How the data were processed

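Libraries were made by Smart-Seq2 from 1000 sorted cells, per the labels' protocols, without strand or molecular identifiers, so overlapping and antisense transcripts cannot be told apart. The deposited files give expected counts per transcript, which the authors did not normalise, and TPM, which the authors' quantifier divided by effective length, per the file headers. Which quantifier, index and version were used is not given in the sources used here.

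Of 116945 transcripts, 116023 matched GENCODE vM21 (GRCm38), 99.67% with the same version; the other 922 held 0.274 to 0.379% of reads and were left out. Reads were summed per gene and rounded. The transcript set held 0 transcripts of Nlgn4l, so the knockout is not analysed here. Depth of 421107 to 1013797 reads makes Slc2a1 the least precise of the 10 genes.

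Differences were fitted in edgeR 4.0.16 (robust quasi-likelihood F test, TMM, minimum count 10, prior count 0.125) in 1 fit of 8 group means with no covariate, over 9803 genes and 20 comparisons, with Benjamini-Hochberg adjustment and a threshold of 0.05. The biological coefficient of variation was 0.285. SEs were worked back from the fold without prior count and the F statistic. DESeq2 1.42.0 was an alternative, among scaling, filter, transcript, replicate and library choices. CPM are TMM-normalised, except marker sums, which use library totals. TPM were used only for levels between genes. Satellite-like genes have a transcript made mostly of short words, of fewer than 31 bases, that occur in the predicted gene Gm10800 on either strand. Copies share at least 100 words of 31 bases with a gene, making at least 25% of a copy transcript. Sequences come from GENCODE vM21 transcripts and RefSeq promoters.

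The 10 genes and all lists were chosen with earlier results of these data known. All 10 are named; from each other list, up to 4 genes past the threshold with the smallest adjusted p in the state comparison, or up to 2 where none passed. Aldoc, the fifth in its list, was named after its values were seen.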

Additional observations from a re-analysis of the deposited data

Results flagged for a closer look

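Of 40 sets of 4 phagocytosis libraries (10 genes in 4 groups), 4 had a library far from the other 3, where chance gives about 1 in 20. Pkm was 3498 CPM in female WT phagocytosis 2, against 2274 to 2429 CPM in the others of its group. In male WT phagocytosis 4, Pkm was 1419 CPM, against 2502 to 2579 CPM in the others, and Eno1 was 708 CPM, against 1059 to 1108 CPM. Tpi1 was 658 CPM in male NL4-/- phagocytosis 4, against 391 to 422 CPM in the others. Male WT phagocytosis 4 and male NL4-/- phagocytosis 4 had satellite-like shares of 1.71% and 1.51%, among the lowest of the series; a part of this in the values was not tested.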

How the results depend on the processing

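The state count of 7 of 10 genes was 7 in all 24 fits that left out 1 library, and 5 with only phagocytosis replicates 3 and 4 and without the 3 satellite-rich controls; no log2 fold change of the state mean or of a within-group call changed sign in any alternative run. The count over all genes was 1332, against 782 with only phagocytosis replicates 3 and 4, 410 without the 3 satellite-rich controls, and 781 to 1508 when 1 library was left out, with the lowest without female WT control 2. Within groups the counts moved with most choices. In female NL4-/- mice (2 as reported) they were 6 with DESeq2, with no expression filter and with replicates 1 and 2 only, 1 with length-scaled counts, with protein-coding transcripts only and with copies added (chosen after seeing the data), 0 with only the libraries of the comparison, with replicates 3 and 4 only and without the satellite-rich controls, and 0 to 5 leaving out 1 library. In female WT mice (1) they were 4 with DESeq2, 2 with no filter and with replicates 1 and 2 only, 0 with length-scaled counts, library totals alone, replicates 3 and 4 only and protein-coding transcripts only, and 0 to 1 leaving out 1 library. In male NL4-/- mice (1) they were 2 with DESeq2, 3 with no filter, 0 without the satellite-rich controls and 0 to 1 leaving out 1 library; in male WT mice (0) the count was 1 with no filter. The Pkm call also ended without female NL4-/- phagocytosis 1 in its group (adjusted p = 0.0553) and, in female WT mice, without phagocytosis 2, 3 or 4 (0.14, 0.0553 and 0.0514); the Pgk1 call in female NL4-/- mice was lost in 7 of 24 such fits. The cause was not tested, beyond the smaller number of libraries. Genotype, sex and interaction counts were 0 in every alternative.

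The replicate numbers are not stated to pair samples, and same-numbered phagocytosis libraries of different groups had correlations of their deviations of -0.1012 to 0.1762 (median 0.015, 24 pairs). With a replicate block the state count was 7 and the counts were 5 in female NL4-/-, 2 in female WT and 2 in male NL4-/- mice.

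Each control group has 2 libraries, so genotype differences in controls and the state differences within a group are coarse. Slc2a1 rests on 13 to 82 reads per library.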
